A study of Mus musculus with 93 samples.

Results

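Lung macrophages sorted after birth were compared with lung macrophages sorted before birth. The members are the 8 lung libraries of the cell type Mac among the 93 libraries of the series: 4 postnatal libraries (P2 replicates 1 and 2, P8 replicate 2 and P21 replicate 2) and 4 embryonic libraries (E14.5 and E18.5, replicates 1 and 2 of each). They were chosen by tissue, cell type and age as the labels give them, without any measured value. RNA of sorted mouse cells was read with SMART-Seq2, a full-length polyA protocol for small amounts of RNA. The labels give no strain, genotype, sex, treatment or gating marker for any of these groups, and nothing that tells biological from technical replicates, so p-values measure the spread between these libraries. For the question of what is particular to lung, the 40 Mac libraries of brain, kidney, liver and skin from the same 5 ages served as the comparison.

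Before birth the lung holds macrophages derived from yolk sac and fetal liver progenitors, which resemble the interstitial macrophages of later life. Around birth, fetal monocytes that settle in the air spaces become alveolar macrophages, which take up and break down surfactant lipid. In mice this step depends on GM-CSF made by alveolar epithelium, which induces the nuclear receptor PPAR-gamma (gene Pparg), and on TGF-beta. The genes Pparg, Car4 (a membrane-bound carbonic anhydrase) and Plet1 (a surface protein anchored to the membrane) served as markers of the alveolar state.

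Values were deposited as log2 levels and not as counts, which leaves the sequencing depth unknown. A gene's level is the log2 of the sum of its transcripts above a common detection floor of 5.525, to which the floor is added, and a gene at the floor was not detected. The 4 postnatal libraries held 14061 to 17656 detected transcripts, fewer than the 18689 to 23064 of the embryonic libraries. The stages do not overlap in this number, so stage and detection cannot be told apart, and the median difference of all 8530 tested genes was -0.55 on the log2 scale. Of the general macrophage genes, Cd68 and Spi1 were present in all 8 libraries. Cd68, a lysosomal membrane protein, lay between 12.75 and 13.94 in postnatal and between 12.07 and 13.69 in embryonic libraries. Spi1, which encodes PU.1, lay between 10.98 and 12.94 in postnatal and between 11.79 and 12.37 in embryonic libraries. Other general macrophage genes differed between the stages: Csf1r, Aif1 and C3ar1 were lower after birth, and Lyz2, Tyrobp and Laptm5 higher.

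One embryonic library stands apart. The mean level of the alveolar macrophage list was 10.66 to 12.10 in the postnatal libraries, against 9.24 in E18.5 replicate 2 and 6.63 to 7.19 in the other 3 embryonic libraries. It also held Sftpc, the surfactant protein of type 2 epithelial cells, at 12.30, against the floor in E18.5 replicate 1. Results that rest on it are given with and without it. It was singled out by the alveolar genes, so results for these genes without it are no separate support. Where the other 3 embryonic libraries lie at the floor, they have no spread, and the standard error without it is smaller for that reason too. The part of epithelial RNA in the values of E18.5 replicate 2 was not tested.

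Plet1, Itgax, Ear2 and Stab1 illustrate the 2 directions of change, and the 250 bases before their annotated start are shown from RefSeq (build GRCm38.p6). Capitals mark matches on either strand to AGGTCA (a unit bound by PPAR and RXR), GGAAGT (a PU.1 core), TTGCNNAA (a C/EBP site), TGCTGA (a MAF recognition core) or CACGTG (the E-box bound by Bhlhe40 and Bhlhe41).
Plet1 at chr9:50494275-50494524 (+): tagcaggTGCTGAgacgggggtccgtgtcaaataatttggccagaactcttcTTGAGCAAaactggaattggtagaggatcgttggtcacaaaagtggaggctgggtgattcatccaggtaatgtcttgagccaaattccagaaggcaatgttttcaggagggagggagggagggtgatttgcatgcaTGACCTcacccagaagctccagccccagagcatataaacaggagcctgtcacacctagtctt
Itgax at chr7:128129300-128129549 (+): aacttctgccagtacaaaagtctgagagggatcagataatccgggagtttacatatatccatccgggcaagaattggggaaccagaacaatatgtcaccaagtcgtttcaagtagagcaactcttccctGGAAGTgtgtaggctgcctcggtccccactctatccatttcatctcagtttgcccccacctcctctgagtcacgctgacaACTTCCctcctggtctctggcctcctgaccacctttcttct
Ear2 at chr14:44102404-44102653 (+): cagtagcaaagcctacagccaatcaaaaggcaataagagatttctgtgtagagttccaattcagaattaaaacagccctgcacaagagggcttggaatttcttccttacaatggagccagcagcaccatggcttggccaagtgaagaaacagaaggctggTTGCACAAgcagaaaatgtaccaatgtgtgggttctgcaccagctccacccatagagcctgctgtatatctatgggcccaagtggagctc
Stab1 at chr14:31168642-31168891 (-): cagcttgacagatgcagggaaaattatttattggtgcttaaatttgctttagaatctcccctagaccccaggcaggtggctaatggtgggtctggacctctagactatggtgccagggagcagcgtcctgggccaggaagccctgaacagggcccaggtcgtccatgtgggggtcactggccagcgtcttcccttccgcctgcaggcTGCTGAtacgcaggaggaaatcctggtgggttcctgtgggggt
No capitals overlap in these 4 stretches, and each run of capitals is 1 match. Over all 32851 RefSeq mouse promoters of the same length, 14.0% hold AGGTCA, 19.7% GGAAGT, 9.56% TTGCNNAA, 16.1% TGCTGA and 6.02% CACGTG. Of the markers and the 10 largest rises and 10 largest falls, 14 genes have a single start in the RefSeq table, 8 higher and 6 lower after birth. AGGTCA occurs in 2 of the 8 and in 1 of the 6, GGAAGT in 3 and in 1, TTGCNNAA in 2 and in 0, TGCTGA in 1 and in 2, and CACGTG in none. Of the 14, 6 hold none of these letters, Car4 among them. A match is a string of letters, not a measured binding site.

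Of 22 tested genes of alveolar macrophages, 13 were called higher after birth and 9 were not called, where a called gene has an adjusted p under 0.05 and a log2 difference of at least 1 in size (1.97% of all tested genes were called higher). For 12 of the 22, E18.5 replicate 2 was the only embryonic library above the floor. Plet1, on chromosome 9 (50494525 to 50505482, mm10, protein-coding), lay at 13.08 and 14.33 at P2, 10.92 at P8 and 13.58 at P21, against 10.83 in E18.5 replicate 2 and the floor in the other 3 embryonic libraries. All 4 postnatal levels exceeded all 4 embryonic ones, the lowest by a narrow margin. The rise of 6.13 ± 1.23 on the log2 scale (postnatal minus embryonic, standard error) passed the test in limma (Benjamini-Hochberg adjusted p = 0.0163). Without E18.5 replicate 2, which leaves 3 embryonic values all at the floor, the rise was 7.45 ± 0.98 (adjusted p = 0.00539).

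Car4, on chromosome 11 (84957786 to 84966044), lay at 13.40, 12.73, 12.09 and 12.71 in the P2, P8 and P21 libraries, against 12.23 in E18.5 replicate 2 and the floor in the other 3 embryonic libraries. The stages overlap, because E18.5 replicate 2 lies above P8. The difference was 5.53 ± 1.33 (adjusted p = 0.0272). Without E18.5 replicate 2, which leaves 3 embryonic values all at the floor, it was 7.21 ± 0.85 (adjusted p = 0.00539). The call was lost when any of the other 7 libraries was left out, with differences of at least 4.97 and adjusted p up to 0.0841.

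Pparg, on chromosome 6 (115360951 to 115490399), lay at 11.11 and 12.44 at P2, 8.29 at P8 and 11.71 at P21, against 8.05 and the floor at E14.5 and 8.03 and 9.73 at E18.5. P2 and P21 exceeded all embryonic libraries, and P8 did not. The averages of 10.89 ± 1.81 after birth and 7.83 ± 1.73 before it (SD, n = 4 each) differed by 3.05 ± 1.13, which did not pass the test (adjusted p = 0.128), nor did it without E18.5 replicate 2 (adjusted p = 0.107). Pparg was thus detected in 3 of the 4 embryonic libraries, unlike Car4 and Plet1, which were detected in 1.

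**Figure D1:**
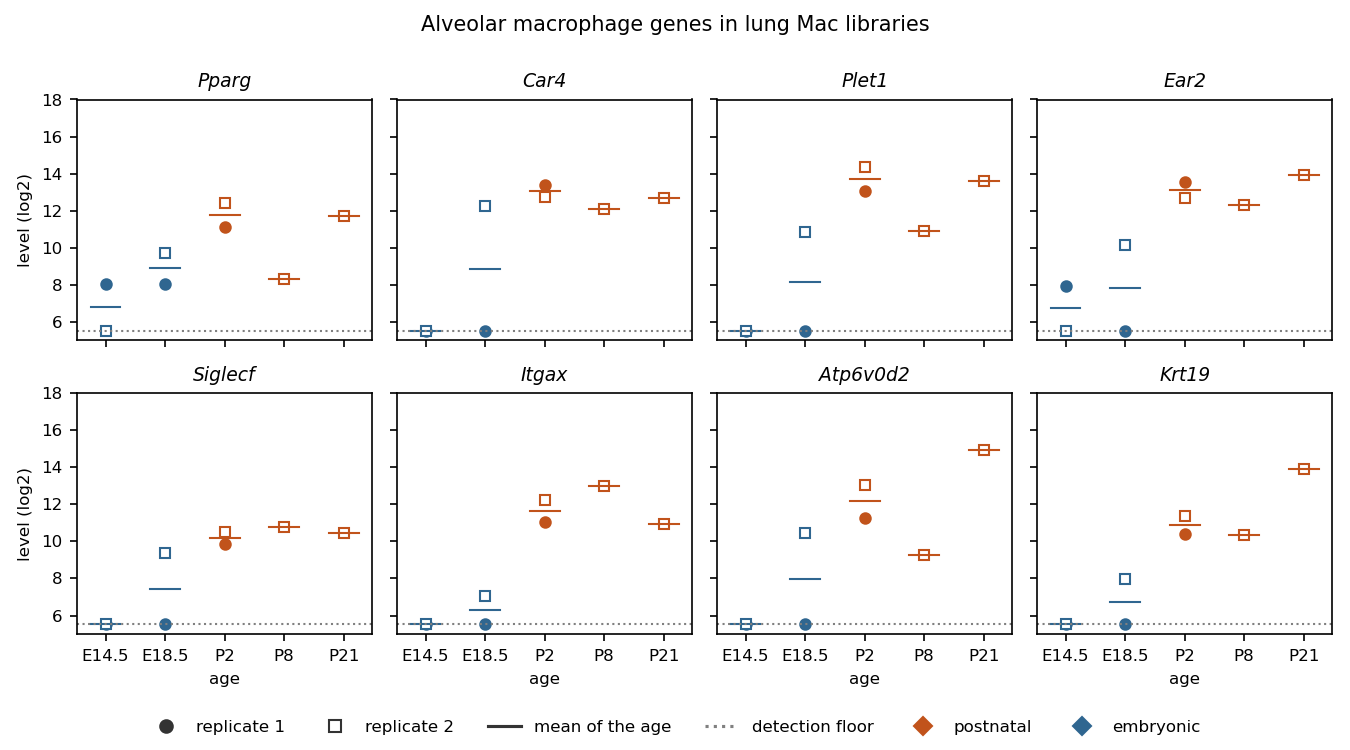
Levels (log2, vertical axis) of 8 alveolar macrophage genes in each lung Mac library by age (horizontal axis). Circles are replicate 1, open squares replicate 2, bars the mean of the age, and the dotted line the detection floor of 5.525. In each panel E18.5 replicate 2 lies above E18.5 replicate 1.

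Among all tested genes, 620 of 8530 were called (7.27%), and 168 were higher after birth (1.97%) and 452 lower (5.3%). The alveolar macrophage list, which was written with earlier results of these data known, has 23 measured genes, of which 22 passed the filter on low values. A gene could pass that filter through 1 stage alone, so counts of a list describe its tested members. Of the 22, 13 were called higher and 0 lower, with a median difference of 4.19, and the levels of 8 did not overlap between the stages (6.32% of all tested genes did so in this direction). Without E18.5 replicate 2 the count was 12, and leaving out another single library brought it to 5 (without E18.5 replicate 1 or P21), 6 (without E14.5 replicate 1, E14.5 replicate 2 or P2 replicate 1) or 8 (without P2 replicate 2 or P8).

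The called members cover several sides of the alveolar macrophage. Ear2 encodes an eosinophil-associated ribonuclease and lay at 13.56 and 12.67 at P2, 12.29 at P8 and 13.92 at P21, against 7.95 and the floor at E14.5 and the floor and 10.15 at E18.5. The stages did not overlap, and the rise was 5.82 ± 1.02 (adjusted p = 0.0113). Its close relative Ear1 averaged 10.57 ± 0.95 after birth and 5.74 ± 0.44 before it (SD, n = 4 each; adjusted p = 0.0138). The 2 genes are similar in sequence, and how reads were divided between them is uncertain.

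Surface receptors rose with them. Itgax, which encodes CD11c, the integrin used to sort alveolar macrophages, lay at 11.06 and 12.26 at P2, 13.01 at P8 and 10.95 at P21, against 7.07 in E18.5 replicate 2 and the floor in the other 3 embryonic libraries. It rose by 5.91 ± 0.91 (adjusted p = 0.00814), with no overlap. Siglecf, a sialic acid-binding receptor of alveolar macrophages and eosinophils, lay between 9.86 and 10.77 in the postnatal libraries, against 9.36 in E18.5 replicate 2 and the floor elsewhere (difference 3.91 ± 1.07, adjusted p = 0.0427). The eosinophil genes Prg2 and Ccr3 were at the floor in all 8 libraries.

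Marco, a scavenger receptor for inhaled particles, lay at 10.77 and 11.85 at P2, 12.54 at P8 and 12.95 at P21, against 10.91 and the floor at E14.5 and the floor and 9.09 at E18.5. E14.5 replicate 1 thus overlaps the lowest P2 library, and the call (difference 4.26 ± 1.18, adjusted p = 0.0452) was lost without any 1 of 7 libraries, E18.5 replicate 2 among them (adjusted p = 0.0590). The call of Siglecf was lost without any 1 of the 7 libraries other than E18.5 replicate 2 (adjusted p up to 0.121).

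Other called members of the list are lysosomal and junction genes and a keratin. Atp6v0d2, a subunit of the proton pump that acidifies lysosomes, lay at 11.29 and 13.03 at P2, 9.25 at P8 and 14.95 at P21, against 10.47 in E18.5 replicate 2 and the floor in the others. P8 therefore lies below E18.5 replicate 2, and the difference was 5.37 ± 1.38 (adjusted p = 0.0350). Krt19, a keratin, lay between 10.33 and 13.90 after birth, against 7.98 in E18.5 replicate 2 and the floor elsewhere (5.37 ± 1.07, adjusted p = 0.0163). Ctsk, a cysteine protease of lysosomes, rose by 4.71 ± 1.21 (adjusted p = 0.0347) and Perp, a membrane protein of epithelial junctions, by 4.39 ± 1.03 (adjusted p = 0.0249). The calls of Atp6v0d2, Ctsk and Perp were lost in 6, 7 and 6 of 8 fits with 1 library left out, and that of Krt19 in none.

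Chil3, the chitinase-like protein Ym1 that is abundant in adult alveolar macrophages, was among the 9 tested members that were not called. Its level was 10.17 and the floor at P2, 12.32 at P8 and 16.59 at P21, against 7.81 in E18.5 replicate 2 and the floor in the other embryonic libraries. P21 was the highest library and P2 replicate 2 did not exceed the embryonic ones (difference 5.05 ± 1.81, adjusted p = 0.116). Krt79 likewise lay at 6.22 and 11.62 at P2, 9.23 at P8 and 13.54 at P21 (adjusted p = 0.0983). Fabp4, a fatty acid-binding protein induced by PPAR-gamma, lay between 6.23 and 9.73 after birth, against 11.18 in E18.5 replicate 2 and 5.525 to 6.78 in the other embryonic libraries, so its highest level was embryonic.

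Across all genes, leaving out predicted gene models, the 10 largest rises without overlap between the stages were Acaa1b, Plet1, Cd9, Itgax, Il1rn, Bcl2a1d, Ccl6, Ear2, Rab44 and Serpinb1a, at 5.44 to 6.22 on the log2 scale. Acaa1b, a peroxisomal thiolase of fatty acid oxidation, lay at 12.21 and 11.80 at P2, 13.13 at P8 and 13.18 at P21, against 8.87 in E18.5 replicate 2 and the floor in the other 3 (6.22 ± 0.95, adjusted p = 0.00797). Il1rn, the antagonist of the interleukin-1 receptor, lay between 11.69 and 14.40 after birth, against 5.525 to 10.29 before it. Cd9, a tetraspanin, was detected in every embryonic library, at 5.88 to 13.53, against 14.70 to 15.52 after birth. Of these 10, the calls of Cd9 and Ccl6 were lost in some fits with 1 library left out (3 and 6 of 8, adjusted p up to 0.0582 and 0.0826), and those of the other 8 in none. Acaa1b and Bcl2a1d have near-identical relatives, so their counts are uncertain.

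The genes of embryonic and interstitial macrophages moved the other way: 15 of 19 tested were called lower after birth, against 5.3% of all tested genes. Stab1, the scavenger receptor stabilin-1 on chromosome 14 (31139013 to 31168641), lay at 9.18 and 6.70 at P2, 8.51 at P8 and 6.08 at P21, against 15.70 and 17.46 at E14.5 and 16.15 and 15.59 at E18.5. It fell by 8.61 ± 0.73 on the log2 scale (adjusted p = 0.000228). No gene of the comparison that met the naming rule fell by more, and its call held in each fit with 1 library left out (adjusted p up to 0.00908).

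F13a1, the A chain of coagulation factor XIII, lay at 7.37 in P2 replicate 1 and at the floor in the other 3 postnatal libraries, against 12.92 to 14.51 before birth (-7.54 ± 0.80, adjusted p = 0.00105). It was thus undetected at P8 and P21.

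The 3 chains of complement C1q kept measurable levels after birth. C1qb lay at 8.62 and 11.12 at P2, 8.33 at P8 and 8.99 at P21, against 15.11 and 14.41 at E14.5 and 14.81 and 14.45 at E18.5 (-5.43 ± 0.63, adjusted p = 0.00132). C1qa fell by 4.68 ± 0.65 and C1qc by 5.83 ± 0.65 (adjusted p = 0.00450 and 0.00132). Unlike the alveolar genes, these genes had close values in all 4 embryonic libraries, E18.5 replicate 2 included.

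The homing and phagocytosis genes behaved in the same direction. Cx3cr1, the fractalkine receptor, averaged 7.70 ± 1.11 after birth and 13.12 ± 0.40 before it (SD, n = 4 each; adjusted p = 0.00428). Gas6, the bridging ligand by which Mertk and related receptors bind dying cells, averaged 6.83 ± 1.37 after birth and 13.22 ± 0.98 before it (SD, n = 4 each; limma adjusted p = 0.00441). Lyve1, the hyaluronan receptor, lay at 10.502 in P2 replicate 1 and 5.91 or less in the other postnatal libraries, against 11.84 to 13.62 before birth (-5.93 ± 1.11, adjusted p = 0.0138). Folr2, the folate receptor of perivascular macrophages, averaged 6.34 ± 0.56 after birth and 11.45 ± 1.18 before it (SD, n = 4 each; limma adjusted p = 0.0115).

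Mrc1, the mannose receptor CD206, changed least among the called members. Its levels were 13.38, 13.34, 11.95 and 13.36 after birth, against 14.51, 15.08, 15.01 and 14.38 before it. The stages did not overlap although both were high (-1.73 ± 0.40, adjusted p = 0.0240), and the call was lost without E14.5 replicate 2, E18.5 replicate 1 or P8 (adjusted p up to 0.0681). The list had 0 called rises and a median of -4.68, and 16 of the 19 did not overlap (9.78% of all tested genes did so in this direction). The count was 14 without E18.5 replicate 2 and 10 to 15 in all fits with 1 library left out, with the lowest without E18.5 replicate 1 or P8.

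**Figure D2:**
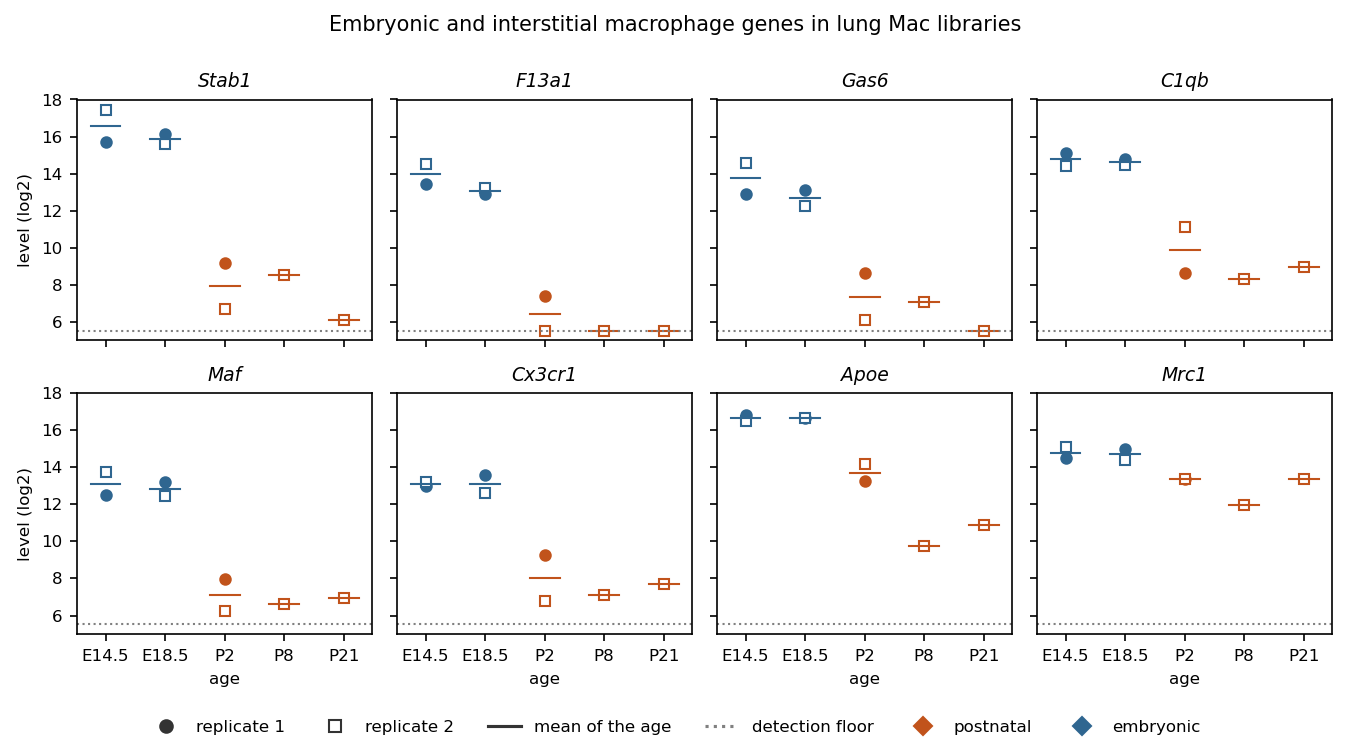
Levels (log2, vertical axis) of 8 genes that fell after birth, in each lung Mac library by age (horizontal axis), with symbols as in the plot of alveolar genes. In each panel the 4 embryonic libraries lie above the 4 postnatal ones, and F13a1 lies at the floor at P8 and P21, whereas Mrc1 is at 11.95 or more in every library.

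The general macrophage genes split. Csf1r, the receptor for the growth factors CSF1 and IL-34, lay at 11.61 and 13.52 at P2, 10.82 at P8 and 13.44 at P21, against 14.81 to 15.35 before birth (-2.69 ± 0.56, adjusted p = 0.0174). Aif1 (IBA1), which bundles actin, fell by 4.84 ± 0.84 (adjusted p = 0.0106) and was at the floor in 3 of the 4 postnatal libraries, and C3ar1, the receptor for complement C3a, fell by 4.23 ± 1.02 (adjusted p = 0.0272). Lyz2, lysozyme, lay between 15.54 and 16.88 after birth, against 11.35 to 15.35 before it (2.79 ± 0.69, adjusted p = 0.0315). Tyrobp, the signalling adaptor DAP12, and Laptm5, a lysosomal protein of blood cells, rose by 1.55 ± 0.37 and 1.78 ± 0.39. Of 19 tested members, these 3 were higher, the other 3 lower and 13 not called (1.97% and 5.3% of all tested genes were higher and lower). The calls of Lyz2 and Tyrobp were lost in 6 and 4 of 8 fits with 1 library left out, and those of Csf1r and Aif1 in none. Adgre1, an adhesion receptor used as a macrophage marker, lay at 8.76, 7.76, 6.62 and 11.30 after birth, against 11.27 to 12.07 before it (adjusted p = 0.0659).

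No tested gene of the GM-CSF or TGF-beta list was called higher, where 1.97% of all tested genes were. In lists of this size a count of 0 is near that share. The receptor chains were already expressed before birth: Csf2ra lay at 12.02 to 13.24 after birth, against 9.43 to 11.85 before it, and Csf2rb at 11.47 to 13.73, against 10.38 to 11.58. Their differences of 1.86 ± 0.64 and 1.75 ± 0.60 did not pass the test (adjusted p = 0.101 and 0.103), and Csf2rb is hard to separate from its copy Csf2rb2. Of 13 tested GM-CSF genes 0 were called, with a median of 1.07, and 10 differences were positive. Bhlhe40, a transcriptional repressor, lay at 9.44 to 11.49 after birth, against 10.16 in E18.5 replicate 2 and 5.525 to 7.43 in the other 3. Its difference of 3.17 ± 1.15 was not called (adjusted p = 0.122), and was called without E18.5 replicate 2 (4.17 ± 1.09, adjusted p = 0.0486).

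Of the TGF-beta genes, Tgfbr1 and Tgfbr2, the signalling receptors, differed by 0.41 ± 0.85 and -0.19 ± 0.76. Smad3, which carries the signal to the nucleus, was the 1 called gene of 10 tested, where 5.3% of all tested genes were called lower. It lay at 5.69 in P2 replicate 1 and at the floor in the other postnatal libraries, against 8.24 to 8.42 before birth (-2.77 ± 0.58, adjusted p = 0.0183). The call was lost when any 1 postnatal library was left out (adjusted p up to 0.0790). At these low levels, a fall to the floor gives a lower limit of the difference.

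Fatty acid and lipid droplet genes included 4 called rises among 26 tested, where 1.97% of all tested genes were called higher, and 0 falls, with a median of 0.83. Mgll, the lipase of monoacylglycerols, lay at 11.78, 11.41, 12.90 and 11.50 after birth, against 6.55 and the floor at E14.5 and the floor and 10.09 at E18.5 (4.97 ± 1.07, adjusted p = 0.0191). Cpt1a, which admits fatty acids to mitochondria, rose by 3.31 ± 0.80, Dgat1, which makes triglycerides, by 2.80 ± 0.63, and Lpl, lipoprotein lipase and also a member of the alveolar list, by 2.67 ± 0.68 (adjusted p = 0.0272, 0.0211 and 0.0331). Leaving out E18.5 replicate 1 removed all 4 calls, and leaving out E14.5 replicate 1 or P8 kept 1 gene of the list. Without E18.5 replicate 2, 4 genes of the list were called, Cpt1a not among them (adjusted p = 0.0548). Their embryonic starting points differed: Lpl was at 9.13 to 12.34 before birth and Mgll at the floor in 2 libraries.

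Of 23 tested genes of cholesterol export and lysosomal lipid degradation, 1 was called higher and 2 lower, near the shares of all tested genes (1.97% and 5.3%), and 20 were not called (median -0.23). Abcg1, the exporter to high-density lipoprotein, lay at 13.32 and 15.004 at P2, 11.53 at P8 and 13.43 at P21, against 10.85 and 7.50 at E14.5 and 8.70 and 11.77 at E18.5 (3.62 ± 0.96, adjusted p = 0.0381). Abca1, the exporter to apolipoprotein A-I, lay at 9.57, 9.45, 8.06 and 6.35, against 12.31, 12.13, 12.06 and 10.27 (-3.33 ± 0.89, adjusted p = 0.0399). Apoe, which carries exported lipid, lay at 13.27 and 14.16 at P2, 9.77 at P8 and 10.86 at P21, against 16.51 to 16.85 before birth (-4.65 ± 0.75, adjusted p = 0.00900). The falls of Abca1 and Apoe involved every library, and the rise of Abcg1 did not, since P8 lies below E18.5 replicate 2. The calls of Abca1 and Abcg1 were lost in 7 and 6 of 8 fits with 1 library left out, and that of Apoe in none. None of 20 tested cholesterol biosynthesis genes was called (median 1.26), with Mvk and Mvd at 3.22 ± 1.31 and 3.05 ± 1.12.

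Of 20 tested receptors for microbes and debris, 3 were called higher and 3 lower (1.97% and 5.3% of all tested genes). Marco among the rises, and Stab1 and Mrc1 among the falls, are also counted in the alveolar or the embryonic and interstitial list. A gene can belong to more than 1 list, as Abcg1, Maf and Pf4 also do. Fpr2, a formyl peptide receptor, lay between 11.50 and 13.01 after birth, against 10.21 in E18.5 replicate 2 and 5.525 to 6.02 in the others (5.35 ± 1.08, adjusted p = 0.0164). Clec7a, the beta-glucan receptor dectin-1, lay between 12.57 and 13.69, against 5.525 to 11.72 (4.70 ± 1.14, adjusted p = 0.0277). Tlr1, which pairs with Tlr2 to sense bacterial lipopeptides, was at the floor in 3 postnatal libraries and at 6.30 at P8, against 9.90 to 12.12 before birth (-4.89 ± 0.91, adjusted p = 0.0138). Its partner Tlr2 was not called (2.53 ± 1.07, adjusted p = 0.184). Leaving out any 1 of 6 libraries, all but E14.5 replicate 1 and E18.5 replicate 2, left 1 called rise, and the call of Clec7a was lost in 6 of 8 such fits (adjusted p up to 0.0723), those of Fpr2 and Tlr1 in none.

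Among 14 tested cytokine and chemokine genes, 2 were higher and 4 lower (1.97% and 5.3% of all tested genes). Ccl6, a chemokine of myeloid cells, lay at 14.83 to 16.54 after birth, against 10.41 and the floor at E14.5 and 8.49 and 14.69 at E18.5 (5.83 ± 1.38, adjusted p = 0.0256). The monocyte-attracting chemokines Ccl7 and Ccl12 fell: Ccl7 was at the floor in all 4 postnatal libraries, against 8.39 to 11.04 before birth (adjusted p = 0.0163), and Ccl12 at 5.525 to 7.16, against 8.601 to 10.10 (adjusted p = 0.0252). Cxcl16 and Pf4 were lower as well, at -3.44 ± 0.94 and -4.35 ± 0.96 (adjusted p = 0.0426 and 0.0208). The falls numbered 0 without P8, 1 without E18.5 replicate 1, and 2 without E18.5 replicate 2, P2 replicate 1 or P21. Single calls were lost in 6 of 8 such fits for Cxcl16, 5 for Ccl12, 4 for Pf4 and 2 for Ccl7.

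Interferon-induced genes included called falls, with 5 of 11 tested called lower (5.3% of all tested genes), 0 higher and a median of -2.43. Oas2, which makes the oligoadenylates that activate RNase L, lay at 7.55 and 10.08 at P2, 7.08 at P8 and 6.37 at P21, against 10.66 and 12.66 at E14.5 and 14.45 and 12.76 at E18.5 (-4.87 ± 0.99, adjusted p = 0.0168). Mx1, an antiviral GTPase, lay at 5.525 to 6.54, against 9.20 to 12.51, highest in E18.5 replicate 1 (-5.01 ± 0.99, adjusted p = 0.0159). Irf9, Oas1a and Oasl2 were the other 3. The count was 1 without E18.5 replicate 1, 3 without any 1 of E18.5 replicate 2, P2 replicate 2, P8 and P21, and 8 without E14.5 replicate 2.

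Of 8 tested genes of MHC class II presentation, 0 were called higher and 1 lower (1.97% and 5.3% of all tested genes). The differences of 7 of the 8 were positive, with a median of 1.95. H2-Ab1 lay at 6.46, 8.99, 10.10 and 9.51 after birth, against 8.22 in E18.5 replicate 2 and the floor in the others (2.56 ± 1.01, adjusted p = 0.154). The called gene was Cd86, the costimulatory ligand for T cells, which is not itself an MHC class II gene. It fell by 5.34 ± 0.95, to 5.58 to 7.23 after birth, against 9.80 to 12.99 before it (adjusted p = 0.0113).

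Transcription factors of macrophages gave 2 called rises and 2 falls among 23 tested, against 1.97% and 5.3% of all tested genes. Klf4 lay at 11.38, 10.49, 12.62 and 12.24 after birth, against 5.55 and 7.20 at E14.5 and the floor and 10.15 at E18.5 (4.58 ± 1.09, adjusted p = 0.0266), and Tfeb, a regulator of lysosome genes, rose by 4.12 ± 1.04 (adjusted p = 0.0328). Maf, the bZIP factor c-Maf on chromosome 8 (115682942 to 115707794), lay at 7.99 and 6.25 at P2, 6.61 at P8 and 6.96 at P21, against 12.505 and 13.73 at E14.5 and 13.22 and 12.43 at E18.5 (-6.02 ± 0.74, adjusted p = 0.00187). Irf8 fell by 2.24 ± 0.61 (adjusted p = 0.0430), a call lost without any 1 of the 8 libraries, whereas that of Maf held in each such fit. The calls of Klf4 and Tfeb were lost in 5 and 7 of 8 (adjusted p up to 0.0759 and 0.0905), and no rise was called without any 1 of E14.5 replicate 1, E18.5 replicate 1, P2 replicate 1 and P8. Cebpb, which is induced by GM-CSF, lay at 11.26 to 11.93, against 8.06 to 10.16, without overlap and without a call (2.40 ± 0.70, adjusted p = 0.0558).

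Cell cycle genes stayed measurable after birth. Mki67, a marker of cycling cells, lay at 12.60, 12.17, 12.47 and 13.52, against 13.02, 14.91, 13.11 and 12.22 (-0.63 ± 0.57, adjusted p = 0.548). The mitotic kinases Bub1 and Plk1 were the 2 called genes of 33 tested, at -3.66 ± 0.79 and -3.81 ± 0.93 (adjusted p = 0.0196 and 0.0286), a share near the 5.3% of all tested genes called lower. Their calls were lost in 3 and 6 of 8 fits with 1 library left out, and the count ranged over 0 (without P8) to 3. The median of the 33 was -0.96, against -0.55 for all tested genes. Of 9 tested mitochondrially encoded transcripts, 5 were called higher, with a median of 1.47, where 1.97% of all tested genes were called higher. Leaving out 1 library moved the count to 0 (without P21), 1 (without any of 5 others), 4 (without E18.5 replicate 2) or 8 (without E14.5 replicate 1). After quantile normalization 0 of the 9 were called. In the comparison of lung with the other tissues, 0 of the 9 were called in either direction.

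**Figure D3:**
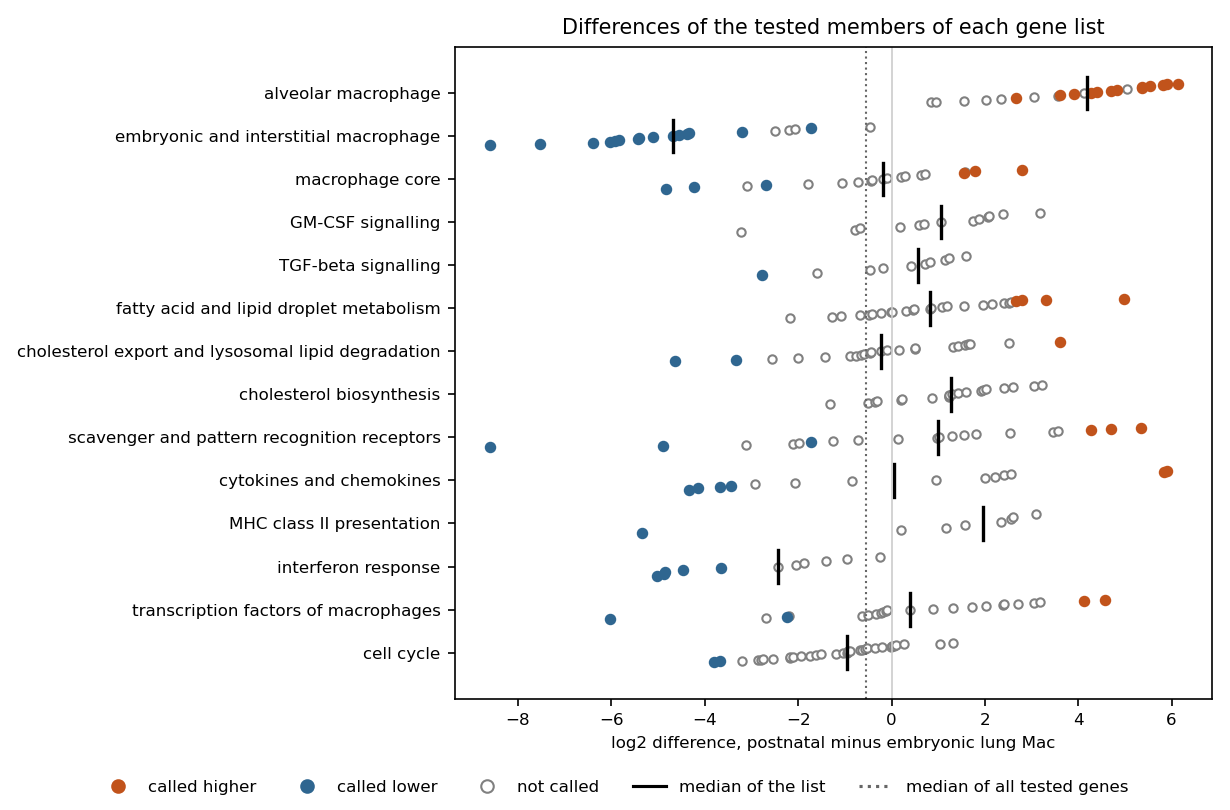
Log2 differences, postnatal minus embryonic lung Mac (horizontal axis), of the tested members of 14 gene lists (rows), with filled points for called genes, open points for the rest and a black bar for the list's median. The alveolar list lies to the right of 0, the embryonic and interstitial list to the left, and the dotted line marks the median of all tested genes at -0.55.

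The change was also set against that in brain, kidney, liver and skin, in 1 fit of the 48 Mac libraries of 5 tissues with a mean per tissue and age; lung has 1 library each at P8 and P21. The lung change minus the mean change of the other 4 tissues was called for 595 of 13806 genes (4.31%), 173 higher in lung (1.25%) and 422 lower (3.06%). The alveolar list had 15 of 23 tested genes called higher and 0 lower, and the embryonic and interstitial list 14 of 22 lower and 0 higher. Leaving out 1 lung library gave 9 (without E18.5 replicate 1) to 17 (without E18.5 replicate 2) for the alveolar list and 12 to 14 for the other. Plet1 and Car4 differed by 5.81 ± 0.88 and 5.60 ± 1.05 (adjusted p = 7.06e-05 and 0.00111), and Pparg by 3.06 ± 1.196 (adjusted p = 0.155). In the other tissues, the mean postnatal level of Car4 was 6.95 in kidney and near the floor in brain, liver and skin, against 12.62 in lung with ages weighted equally. Chil3, not called within lung, was called here (6.26 ± 0.82, adjusted p = 8.25e-06). The standard error of this fit takes a spread pooled over the 48 libraries, to which lung P8 and P21, with 1 library each, add nothing. It therefore does not measure how Chil3 varied among the postnatal lung libraries.

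Among called genes whose lung stages did not overlap, the 5 most raised relative to the other tissues were Fpr2, Rab44, Serpinb1a, Plet1 and Ear2. Chil3 is left out of this ranking because its lung stages overlap. By the same rule, Stab1, Fgd2, Ighm and Slc9a9 were among the 5 most lowered. Ear2 shows that the liver carries it too: its mean postnatal and embryonic levels were 13.11 and 7.29 in lung, 10.504 and 8.62 in liver, and 5.525 and 7.18 in kidney (difference between lung and the rest 5.74 ± 1.11, adjusted p = 0.00143). Stab1 also was lower after birth in skin, at 9.56, against 14.41 before birth, yet the lung difference from the mean of the 4 tissues was -7.33 ± 0.94 (adjusted p = 5.79e-06).

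Apoe and the C1q genes separated lung in the same way. Apoe had postnatal and embryonic means of 11.45 and 16.66 in lung, 16.74 and 16.19 in brain, 17.72 and 16.36 in kidney, 17.71 and 16.13 in liver and 15.31 and 15.26 in skin (-6.10 ± 0.57, adjusted p = 3.59e-08). C1qb had 9.06 and 14.70 in lung and 11.49 and 14.28 in skin, whereas brain, kidney and liver were between 15.98 and 16.20 after birth (-5.80 ± 0.71, adjusted p = 2.89e-06). Fgd2, an exchange factor for Cdc42, fell to 7.08 in lung after birth, against 13.05 before it, while its postnatal mean was 11.48 in skin and 13.44 to 14.65 in brain, kidney and liver. Lyz2, Tyrobp and Laptm5, called within lung, were not called here (adjusted p = 0.214, 0.691 and 0.673).

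Itgax was also high in postnatal skin: its postnatal and embryonic means were 11.87 and 5.91 in lung and 11.61 and 8.62 in skin, and it was called at 4.24 ± 1.12 (adjusted p = 0.0235). H2-Ab1 had a difference of -1.96 ± 1.26 relative to the other tissues (adjusted p = 0.435). Of the fatty acid genes 2 of 29 and of the cholesterol biosynthesis genes 1 of 24 were called higher in lung, 0 lower. Over all genes of this comparison 1.25% were called higher and 3.06% lower. Postnatal lung libraries also had fewer detected transcripts than most others: 11 of the 48 libraries had under 18000, all 4 postnatal lung libraries among them, and with the number of detected transcripts as a covariate 438 genes were called.

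**Figure D4:**
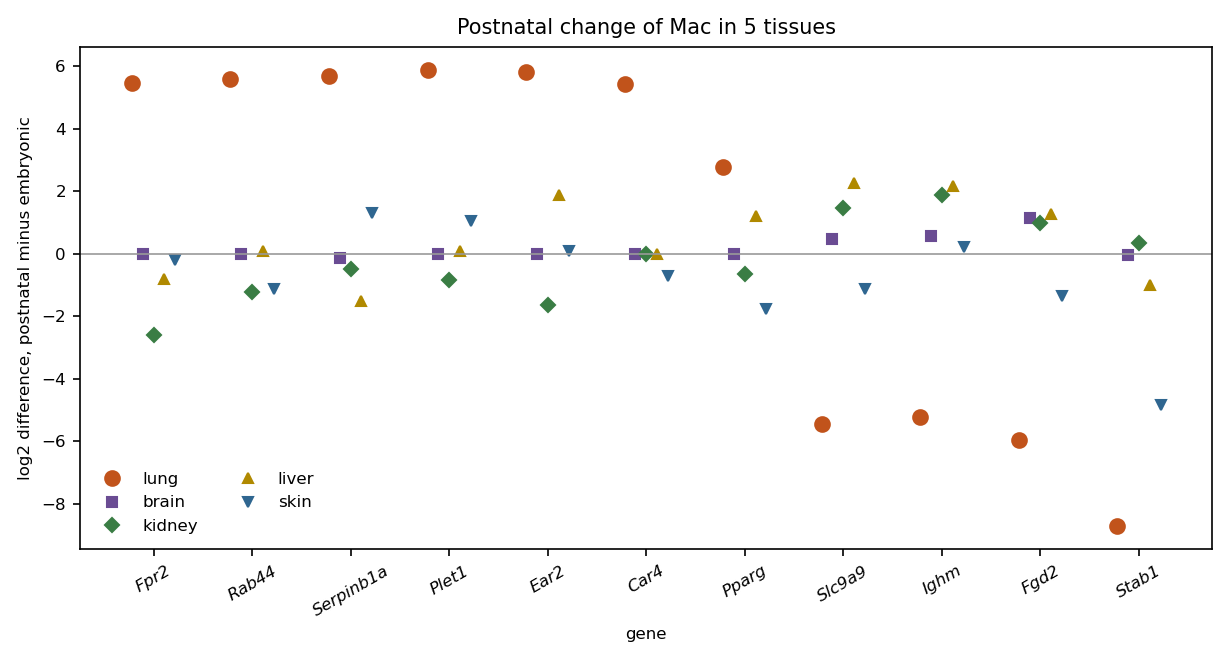
Mean postnatal minus mean embryonic level (log2, vertical axis) of Mac in lung, brain, kidney, liver and skin for 11 genes (horizontal axis), with ages weighted equally. The lung points lie above those of the other 4 tissues for the first 7 genes and below them for the last 4.

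In the same fit the change was placed in time. Standard errors and p-values of these steps also take the spread pooled over the 48 libraries. They do not measure the spread between the lung libraries alone. Between E18.5 and E14.5, 2 of 13806 genes were called (0.0145%), both higher at E18.5, and 517 had an unadjusted p under 0.05. Ifi213, an interferon-induced gene, lay at 13.64 and 11.18 at E18.5 and at the floor in both E14.5 libraries (6.88 ± 1.15, adjusted p = 0.00892), and Tchh lay at 8.79 and 8.71, against the floor (3.22 ± 0.46, adjusted p = 0.00102). Both were back at the floor at P2. The 2 E18.5 libraries differ in the alveolar genes, and leaving out 1 of the 4 embryonic libraries gave 11 to 34 calls (14 without E18.5 replicate 2), against 2 without any 1 postnatal library. No alveolar gene was called at this step, and 5 of 23 were called higher at E18.5 without E18.5 replicate 1.

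Between P2 and E18.5, 126 genes were called (0.913%), 41 higher (0.297%) and 85 lower at P2 (0.616%). A fit of the lung libraries alone, with 1 mean per age, called 1 of 8530 genes at this step, lower at P2. In the fit of 5 tissues, Plet1 was among the 3 largest rises, at 5.53 ± 1.099 (adjusted p = 0.00560), and 6 of 23 alveolar genes were called higher. Without E18.5 replicate 2 the rise of Plet1 was 8.18 ± 1.05 and 9 alveolar genes were called. Without E18.5 replicate 1 Plet1 differed by 2.88 ± 1.08 (adjusted p = 0.506), and 2 were called. Without P2 replicate 2 the call of Plet1 was lost as well (adjusted p = 0.105), and 3 were called. Stab1 was among the 3 largest falls, at -7.93 ± 1.18 (adjusted p = 0.000190), and 10 of 22 embryonic and interstitial genes were called lower (9 without E18.5 replicate 2, 5 without E18.5 replicate 1 and 6 without either P2 library). Synj2, a phosphoinositide phosphatase, lay at 12.44 and 11.63 at P2, against the floor in all 4 embryonic libraries, and at 9.66 at P8 and the floor at P21. Nr4a1, an orphan nuclear receptor of the immediate early type, lay at 11.25 and 11.04 at P2 and at 5.72 or less at P8, at P21 and before birth. Without E18.5 replicate 1 the count of calls was 48, without P2 replicate 2 it was 61, and without E18.5 replicate 2 it was 183.

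Between P8 and P21 together and P2, 157 genes were called (1.14%), 44 higher (0.319%) and 113 lower (0.818%). The 3 largest rises were red cell genes: Hba-a2, a globin, lay at 16.77 at P8 and 16.95 at P21, against 7.25 and 9.40 at P2, and at 9.504 to 16.57 before birth (8.54 ± 2.18, adjusted p = 0.0445). Hba-a1 and Alas2, the first enzyme of heme synthesis in red cells, followed at 8.11 ± 1.96 and 6.73 ± 1.25, and Hba-a1 cannot be separated from Hba-a2 with certainty. The mean of the erythroid list moved with them, at 8.76 at P8 and 9.03 at P21, against 5.95 and 6.74 at P2, and its part in the other differences was not tested. Arhgap12 was at the floor at P8 and P21, against 11.18 and 12.64 at P2 and 10.998 to 11.30 before birth (-6.38 ± 1.18, adjusted p = 0.00285). Slc16a1, a lactate transporter, and Emilin2, a matrix protein, fell by 6.11 ± 1.54 and 6.11 ± 1.45. The calls of Hba-a2, Hba-a1, Slc16a1 and Emilin2 were each lost without any 1 of the 4 postnatal libraries (adjusted p up to 0.190 for Hba-a2), and that of Hba-a2 also in 5 of 10 other alternatives, whereas that of Alas2 held in all of these. The 2 late ages have 1 library each, and without P2 replicate 2 the count was 75. Of the alveolar genes, 2 of 23 were called higher at this step and 0 lower, where 0.319% and 0.818% of all tested genes were. The count of higher calls was 1 to 3 with 1 library left out.

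Markers of other cell types were low in most libraries, with exceptions. The erythroid list of 15 measured genes had a mean level of 5.95 to 9.03 in postnatal and 6.31 to 10.99 in embryonic libraries, and 0 of 7 tested were called between the stages. The lung epithelium list (6 genes) lay at 6.57 to 6.84 after birth and 5.525 to 8.81 before it, the highest in E18.5 replicate 2. Of the monocyte list, Ly6c2 was at the floor in all 8 libraries, and Ccr2, the receptor for the chemokine Ccl2, lay at 11.56 and 12.55 at P2, 7.82 at P8 and the floor at P21, against 8.78 in E18.5 replicate 2 and the floor elsewhere. Fn1, fibronectin, was the 1 called gene of 4 tested there, at 4.68 ± 1.23 (adjusted p = 0.0380), a call lost in 7 of 8 fits with 1 library left out (adjusted p up to 0.114). Of the neutrophil list S100a9 was at the floor in all 8 and S100a8 lay at 6.75 to 8.33 after birth, against 5.525 to 6.46 before it.

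The B cell gene Cd79a and the dendritic cell gene Flt3 were at the floor throughout, although Cd79b and Clec10a were lower after birth, at -4.58 ± 0.81 and -4.75 ± 0.92 (adjusted p = 0.0113 and 0.0156), both detected in all 4 embryonic libraries. The microglia gene Siglech and the Kupffer cell genes Fcna, Timd4 and Slc40a1 were among the called falls as well. No gene of the T and NK cell, mast cell and basophil or fibroblast lists passed the filter. Of the endothelial list 1 gene and of the immediate early and stress list 9 genes were tested and 0 called, and Pf4 and Siglecf were the 1 tested gene of the megakaryocyte and eosinophil lists. The part of other cells in the differences was not tested, and in bulk RNA fewer cells of a type and less RNA per cell cannot be told apart.

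**Figure D5:**
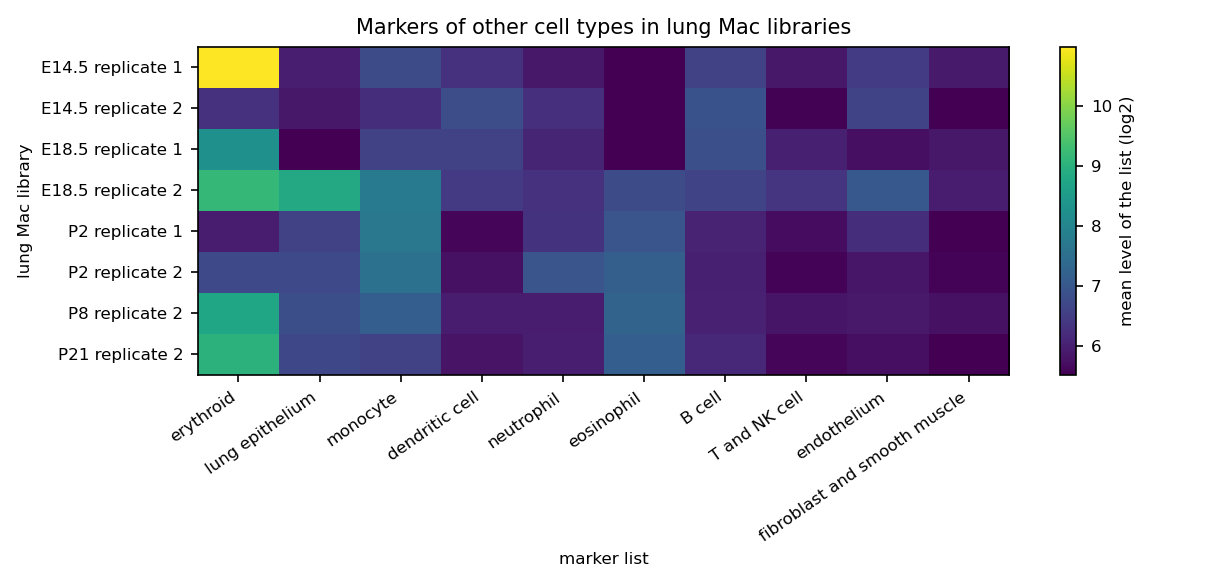
Mean level (log2, colour) of 10 lists of marker genes of other cell types (horizontal axis) in each lung Mac library (vertical axis, embryonic to postnatal ages). Erythroid genes reach 10.99 in E14.5 replicate 1, and lung epithelium genes 8.81 in E18.5 replicate 2.

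Fewer detected transcripts moved with the stage, and the calls were examined with that in mind. When each library kept its highest transcripts only, as many as the lung library with the fewest has (an alternative chosen after seeing the data), 577 genes were called, 218 higher and 359 lower; 13 alveolar genes were higher and 14 embryonic and interstitial genes lower, as against 13 and 15. With the number of detected transcripts as a covariate of the 8 libraries, 0 genes were called in limma and 1172 had an unadjusted p under 0.05, against 1915 without it. The balance of higher to lower calls depends on scaling: 27.1% of calls were higher as given, 36.2% after quantile normalization (142 of 392) and 36.1% with equal medians (194 of 537). The directions of Car4, Plet1, Itgax, Stab1, Maf and the C1q genes were the same under each of these.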

How the data were processed

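Per the labels' protocols, polyA RNA of sorted cells was sequenced with SMART-Seq2. The authors deposited 1 table of normalized values for 37521 Ensembl transcripts in 93 libraries, read here as log2 because of their range (0.836 to 19.0); the base is not stated. The submitters' processing notes name Bowtie 1.1.1, DESeq2 and the build mm10, without saying how each was used. Counts were not part of the table, so depth and counting error are unknown, and no source used here states whether reads were counted by strand.

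Of the transcripts, 36703 matched a gene of GENCODE vM21 (GRCm38/mm10) and 818 did not, which gave 14181 genes. Undetected transcripts form a narrow band in each library, the highest at 5.025, and a floor 0.5 above it (5.525) was applied to all. Genes reaching 6.525 in 4 of the 8 lung libraries (2 of 48 in the fit of 5 tissues) entered linear models (limma 3.58.1, R 4.3.3; variance trend) with Benjamini-Hochberg adjustment. A gene was called at an adjusted p under 0.05 and a log2 difference of at least 1. On data simulated on 8234 genes for postnatal minus embryonic lung, the fit recovered 3 of 50 genes raised by 2 on the log2 scale, 0 of 50 lowered by 2, 17 of 50 raised by 4 and 18 of 50 lowered by 4, with 2 false calls.

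The genes named are the markers; the 10 largest called rises and 10 largest called falls whose stages do not overlap, whose higher stage averages at least 2 above the floor and whose symbols are not predicted or clone models; the called members of each list and up to 4 with the largest differences; and, by the same filter, the 5 highest and 5 lowest genes against the other tissues and the 3 highest and 3 lowest of each step between ages. Some genes that this rule picks are not reported here. Other named genes are list members chosen after their values were seen. The members and lists were chosen with earlier results of these data known. Same-numbered replicates did not deviate together between ages (correlations of 0.0119, -0.0298 and -0.109 across 8530 genes), so the numbers were not used as pairs. Alternatives covered the filter, floor, normalization, weights, covariates, replicate block and each library left out.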

Additional observations from a re-analysis of the deposited data

Results flagged for a closer look

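Single libraries that lie far from the other 3 of their stage were searched for among the named genes (a gap to the nearest library, divided by the range, above Dixon's 95% critical value). For 16 of the 28 values found, the other 3 libraries lie at the detection floor, where any single detection meets this measure, so the rate of about 1 in 20 groups that chance gives for continuous values does not apply to them. E18.5 replicate 2 is the library concerned for most of them. It stood above the other 3 embryonic libraries for Car4 at 12.2, Plet1 at 10.8, Acaa1b at 8.87, Itgax at 7.07, Bcl2a1d at 8.52, Rab44 at 7.61, Serpinb1a at 9.42 and Siglecf at 9.36. The same held for Krt19 at 7.98, Atp6v0d2 at 10.47, Perp at 8.79, Ctsk at 10.34, Fpr2 at 10.21, H2-Eb1 at 7.11 and H2-Ab1 at 8.22, whereas Abca1 was lower there than in the others, at 10.27. Its lung epithelium markers averaged 8.81, and their part in these values was not tested.

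Other libraries were concerned less often. P2 replicate 1 kept F13a1 at 7.37 and Lyve1 at 10.502, above the other postnatal libraries, and P2 replicate 2 kept Slc11a1 at 8.58, Ccl12 at 7.16 and Mx1 at 6.54. P8 was high for Nfxl1 at 6.58 and Slc9a9 at 7.66 and low for Mrc1 at 11.95. P21 was low for Socs2 at 6.11 and apart from the others for Cdc20 at 11.7. Among embryonic libraries, E14.5 replicate 1 was high for Mvk at 6.81 and low for Ccl12 at 8.601.

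The postnatal change in lung differed from the mean change of brain, kidney, liver and skin by a test of the difference itself. It was higher in lung by 6.36 on the log2 scale for Fpr2, 6.15 for Rab44, 5.89 for Serpinb1a, 5.81 for Plet1 and 5.74 for Ear2. It was lower in lung for Stab1 (-7.33), Fgd2 (-6.48), Ighm (-6.42) and Slc9a9 (-6.23). These 9 calls held in all 531 alternatives run for them.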

How the results depend on the processing

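The 620 calls between postnatal and embryonic lung became 214 with no filter, 392 after quantile normalization, 1139 in the fit of 5 tissues, 130 with P2 replicate 1 as the only postnatal library, 1 for P2 against E18.5 alone and 0 with the number of detected transcripts as a covariate (1172 at an unadjusted p under 0.05). Leaving out 1 library gave 200 (without P8) to 573 (without E14.5 replicate 2), with 201 without P21, 332 without E18.5 replicate 1, 339 without E14.5 replicate 1 or P2 replicate 2 and 353 without P2 replicate 1. The share of higher calls was 37.8% with equal detection, 36.2% after quantile normalization and 36.1% with equal medians, against 27.1%. The replicate block gave 350 calls, 516 against the other tissues, 3 for E18.5 against E14.5, 119 for P2 against E18.5 and 130 for the late step; the samples share only a number.

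For the lung change against the other tissues, array weights gave 1095 calls, and leaving out 1 library 228 (without the 1 liver library of E14.5) to 782, with 341 without lung E14.5 replicate 2 and 322 without lung E18.5 replicate 1. Leaving out that liver library, lung P8 or lung P21 also dropped the age concerned from the contrast in all tissues. Those fits therefore test another contrast. Quantile normalization moved the share of higher calls of the lung change against the other tissues to 57.2% and equal medians to 46.8%, against 29.1%. For E18.5 against E14.5 the highest transcript alone, array weights and equal detection each gave 1 call, and leaving out 1 library 2 to 34. For P2 against E18.5, no floor gave 66, quantile normalization 225 and array weights 204, and leaving out 1 library 48 to 183; the higher share was 50.3% with a raised floor. For the late step, no floor gave 25 and array weights 420, and leaving out 1 library 75 to 197; the higher share was 56.3% after quantile normalization and 47.1% with equal medians.

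Of 2199 comparisons for 96 named genes, 1599 kept direction and call, 574 lost the call and 25 gained it. Nr1h2 turned (0.36 with P2 replicate 1 alone). The cause of these changes was not tested. All 8 lung libraries belong to 1 of the 2 sets of libraries that differ in offset, so no value by set exists, and the fit against the other tissues without libraries of few detected transcripts was not possible because it would remove every postnatal lung library.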
